A study of Mus musculus with 8 samples.

Results

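The small interferon-induced proteins described here are Ifi27 and Ifi27l2a of the Ifi27 family, Ifitm1, Ifitm2 and Ifitm3 of the Ifitm family, and Ifi35. Members were found by gene symbol, from the accession that the array files give for each probe. Their list was drawn up with earlier results of these data known. They are 6 of the 19742 genes that had a named and tested probe. RNA from hand-dissected hippocampus of wild type C57BL/6J mice was labelled with Cy3 and hybridised to 1-colour arrays, on which the brightness of a spot reports the abundance of 1 transcript. The 3M group held 4 arrays of mice aged 3 months, and the 29M group 4 arrays of mice aged 29 months. All mice were untreated and had aged in the home cage, and the oldest ones had been bought at an advanced age and kept on by the study. The sources used here give no sex, and the labels give replicate numbers without saying that each sample came from a separate mouse, so the p-values measure the spread between these samples.

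Interferons are secreted proteins that warn cells of infection. Type I and type III interferons activate transcription factors that bind interferon response elements in promoters, and interferon gamma acts through gamma-activated sites. Ifitm proteins are short membrane proteins of the cell surface and of endosomes that hinder the fusion of virus envelopes with the cell. Ifi27 and Ifi27l2a are short hydrophobic proteins of intracellular membranes that are strongly induced by type I interferon, and Ifi35 is a cytoplasmic protein that pairs with Nmi. In brain tissue the response is known from microglia, endothelial cells and the choroid plexus. In bulk tissue such as this, more cells of a type and more RNA per cell cannot be told apart.

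All 6 genes were measured well above background on all 8 arrays, each by 1 probe. Ifitm3 was the only member whose probe was printed in 10 spots, and the others had 1 spot. The 8 arrays were spread over 3 slides, and each slide carried arrays of both ages. Slide 1 carried 3M replicate 1 and 29M replicates 3 and 4, slide 2 carried replicate 2 of each group, and slide 3 carried 3M replicates 3 and 4 and 29M replicate 1. Between 76.2% and 85.0% of the 43020 non-control spots of an array were well above background, no spot was saturated, and the correlation between arrays over 39098 probes was 0.991 to 0.998. 3M replicate 1 had the lowest share above background and was the only array that the scanner software had marked for evaluation. Markers of neurons, the defining cells of the dissected tissue, were well above background for 10 of 10 genes.

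The question was which of these genes differed between 29M and 3M hippocampus. All 6 had a higher mean in 29M, and 3 of them (Ifi27l2a, Ifi27 and Ifi35) were called higher. A gene was called when limma gave an adjusted p under 0.1, after Benjamini-Hochberg adjustment over all probes, together with a log2 change of at least 0.5 (1.41-fold) in either direction. No member was called lower. Over all 39408 tested probes 1.25% were called higher and 0.809% lower, and of the 19742 genes, each taken on its probe with the highest mean, 1.58% were called higher and 0.689% lower. The median log2 change of the 6 genes was 0.56, beside 0.01 over all genes. In 3 of the 6 every 29M array lay above every 3M array, which held for 5.52% of all probes. An unadjusted p under 0.05 in limma was reached by 4 of the 6. The shares of all genes at that p or with a higher mean were not counted, here and for the lists below. Because the 6 genes were chosen with earlier results known, these shares are a description only.

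**Figure D1:**
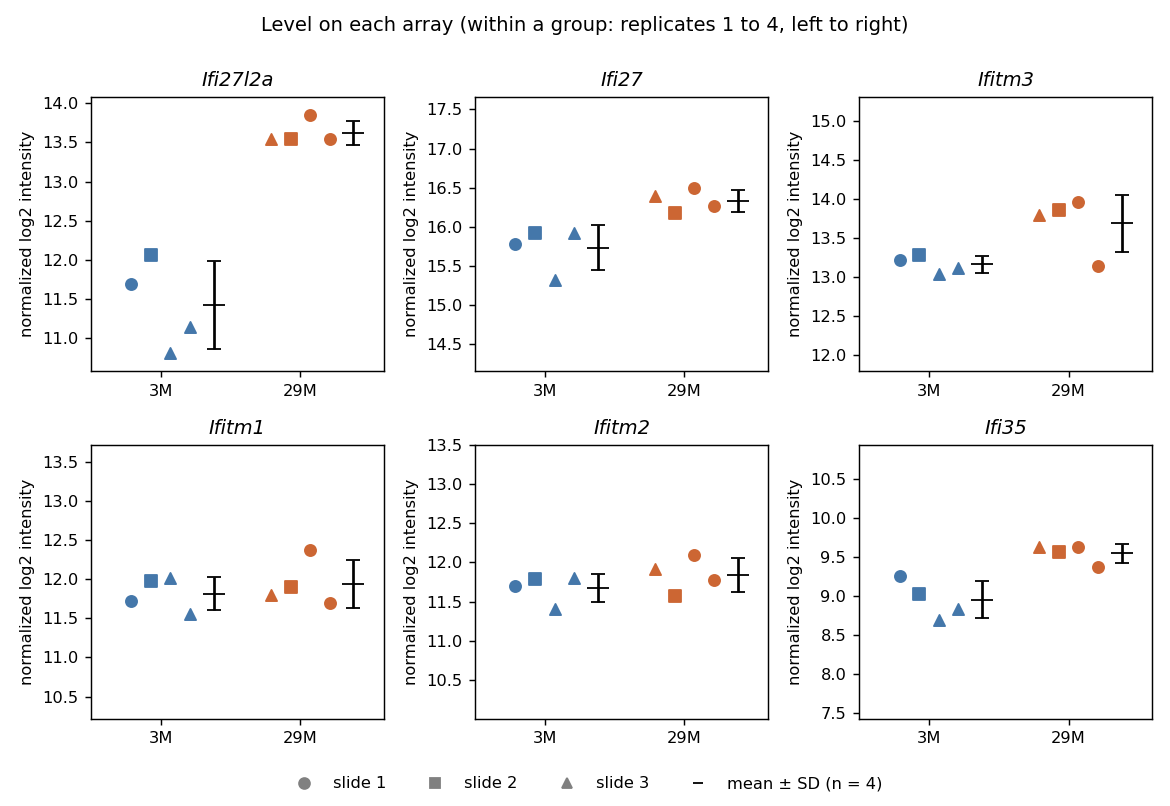
Normalized log2 intensity of each gene on each of the 8 arrays (y axes of equal length, so that distances compare between panels), with 3M in blue and 29M in orange, the slide given by the symbol, and the mean ± SD of 4 arrays as a black bar beside each group. The groups are apart for Ifi27l2a, Ifi27 and Ifi35, and 29M replicate 4 lies among the 3M arrays for Ifitm3.

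Ifi27l2a, a mouse member of the Ifi27 family that type I interferon induces strongly, had the largest rise of the 6. Its normalized log2 intensity was 11.69, 12.07, 10.81 and 11.14 in 3M replicates 1 to 4 and 13.54, 13.55, 13.85 and 13.54 in 29M replicates 1 to 4. The groups did not overlap, and the lowest 29M array stood 1.47 log2 units above the highest 3M array. In scanner units before normalization the probe read 3323, 4296, 1889 and 2164.5 in 3M and 11915.5, 12899, 14431 and 11303 in 29M. The 3M arrays were spread widely and the 29M arrays narrowly, with means of 11.43 ± 0.56 and 13.62 ± 0.15 (SD, n = 4 each). The change was 2.19 log2 units (SE 0.24, 95% interval 1.65 to 2.73), which is 4.58-fold, with a limma adjusted p of 0.00387. Of the 19742 genes it had the 7th largest rise. Within slides 1, 2 and 3 the log2 difference was 2.01, 1.48 and 2.57. An exact two-sided permutation test over the 8 arrays gave p = 0.0286, the smallest that 4 arrays against 4 allow. Groups that do not overlap always give this value, so it only restates that they lie apart.

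Ifi27, the member that gives its family the name, was called with a smaller rise. Its normalized log2 intensity was 15.78, 15.92, 15.32 and 15.92 in 3M replicates 1 to 4 and 16.39, 16.18, 16.50 and 16.26 in 29M replicates 1 to 4. The groups lay apart by 0.26 log2 units, and 3M replicate 3 was lower than the other 3M arrays. The scanner readings ran from 42911.5 to 61826 units in 3M and from 74575 to 90353 in 29M, with no saturated spot. The means were 15.73 ± 0.29 and 16.33 ± 0.14 (SD, n = 4 each), a log2 change of 0.60 (SE 0.14, 95% interval 0.28 to 0.92) or 1.51-fold, with a limma adjusted p of 0.0805. Within slides 1, 2 and 3 the difference was 0.60, 0.27 and 0.77. The exact permutation p was again the smallest possible, 0.0286. The call ended when 3M replicate 2 (limma adjusted p 0.143), 3M replicate 3 (0.1002, with a change of 0.46) or any of 29M replicates 1 to 4 (0.203, 0.1404, 0.136 and 0.153) was left out. It also ended with slide as a fixed block (0.164), with replicate number as a block (0.202) or with the processed signal scaled to the 75th percentile (0.130).

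The measured log2 change of Ifi27l2a exceeded that of Ifi27 by 1.596 (SE 0.21), and the log2 difference between the probes was larger in every 29M array than in any 3M array. This was 1 of 4 pairs within a family that were compared, chosen after the values had been seen. The exact permutation p was 0.0286 (two-sided), and 0.114 after Benjamini-Hochberg adjustment over the 4 pairs. A pair that is alone at the smallest possible exact p cannot go below that value, so the adjusted test could not decide whether these changes differ. The nearest relative on the array, Ifi27l2b, was not called. Its level was 7.37, 7.40, 7.49 and 7.37 in 3M and 7.26, 7.16, 7.27 and 7.18 in 29M. Every 29M array lay below every 3M array, and the share of all probes apart in this direction was not counted. The fitted difference was -0.19 log2 units (SE 0.07), and limma's adjusted p was 0.236. Another Ifi27l2b probe gave 0.20 (SE 0.10, limma adjusted p 0.331) and was not well above background on any array. Copies of a family are alike in sequence, and how far a probe also binds a relative was not tested here.

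Of the Ifitm family, Ifitm3 had the largest change but was not called. Ifitm3 is the member best known for holding enveloped viruses back in endosomes. Its level was 13.22, 13.28, 13.04 and 13.11 in 3M replicates 1 to 4 and 13.80, 13.85, 13.95 and 13.14 in 29M replicates 1 to 4. The 3M arrays were close together, 3 of the 29M arrays lay above all of them, and 29M replicate 4 lay among them. The means were 13.16 ± 0.11 and 13.69 ± 0.37 (SD, n = 4 each), and the log2 change was 0.52 (SE 0.17, 95% interval 0.15 to 0.90) or 1.44-fold, with a limma adjusted p of 0.162 and an exact permutation p of 0.0857. Within slides 1, 2 and 3 the difference was 0.33, 0.57 and 0.72.

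The 10 spots of Ifitm3 show how the arrays differed from one another. The SD between usable spots of 1 array was 0.09 to 0.19 log2 units, with 9 usable spots in 29M replicate 1 and 10 on each other array. On 29M replicate 4 the spots ran from 12.91 to 13.40, within the 12.78 to 13.49 covered by the 3M spots. The lowest spot of the other 29M arrays was at 13.68, so the low value of 29M replicate 4 was common to all its spots. Without this array the log2 change of Ifitm3 was 0.70 (SE 0.09) with a limma adjusted p of 0.0170, and with array weights it was 0.57 with an adjusted p of 0.0421. Under both of these the gene passed the thresholds, and under the other 16 of 18 alternatives it did not. Without 29M replicate 1, 2 or 3 the change was 0.49, 0.47 and 0.43 (limma adjusted p 0.332, 0.316 and 0.240).

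Ifitm2, a close relative of Ifitm3 in the same gene cluster, was not called. Its level was 11.69, 11.79, 11.41 and 11.80 in 3M replicates 1 to 4 and 11.91, 11.57, 12.10 and 11.78 in 29M replicates 1 to 4. The groups overlapped, with 29M replicate 2 below all 3M arrays but 1. The means were 11.67 ± 0.18 and 11.84 ± 0.22 (SD, n = 4 each). The log2 change was 0.17 (SE 0.13, 95% interval -0.13 to 0.47; limma adjusted p 0.561, exact permutation p 0.343), and within slides 1, 2 and 3 it was 0.24, -0.21 and 0.31. With 1 array left out it was 0.081 (without 29M replicate 3) to 0.26 (without 29M replicate 2), and 0.083 without 3M replicate 3.

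Ifitm1, the member known mainly from the cell surface, was not called either. Its level was 11.72, 11.97, 12.01 and 11.56 in 3M replicates 1 to 4 and 11.79, 11.90, 12.38 and 11.69 in 29M replicates 1 to 4. Only 29M replicate 3 lay above the 3M arrays. The means were 11.82 ± 0.21 and 11.94 ± 0.30 (SD, n = 4 each). The log2 change was 0.12 (SE 0.16, 95% interval -0.24 to 0.49; limma adjusted p 0.748, exact permutation p 0.60), it was -0.02 without 29M replicate 3, and within slides 1, 2 and 3 it was 0.31, -0.07 and 0.01.

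The changes of the 3 Ifitm genes could not be told apart from one another. The log2 change of Ifitm3 exceeded that of Ifitm1 by 0.40 (SE 0.18) and that of Ifitm2 by 0.36 (SE 0.20), each with an exact permutation p of 0.114 and 0.152 after adjustment over the 4 pairs. Ifitm1 and Ifitm2 differed by -0.04 (SE 0.21, exact permutation p 0.8286, and the same when adjusted).

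**Figure D2:**
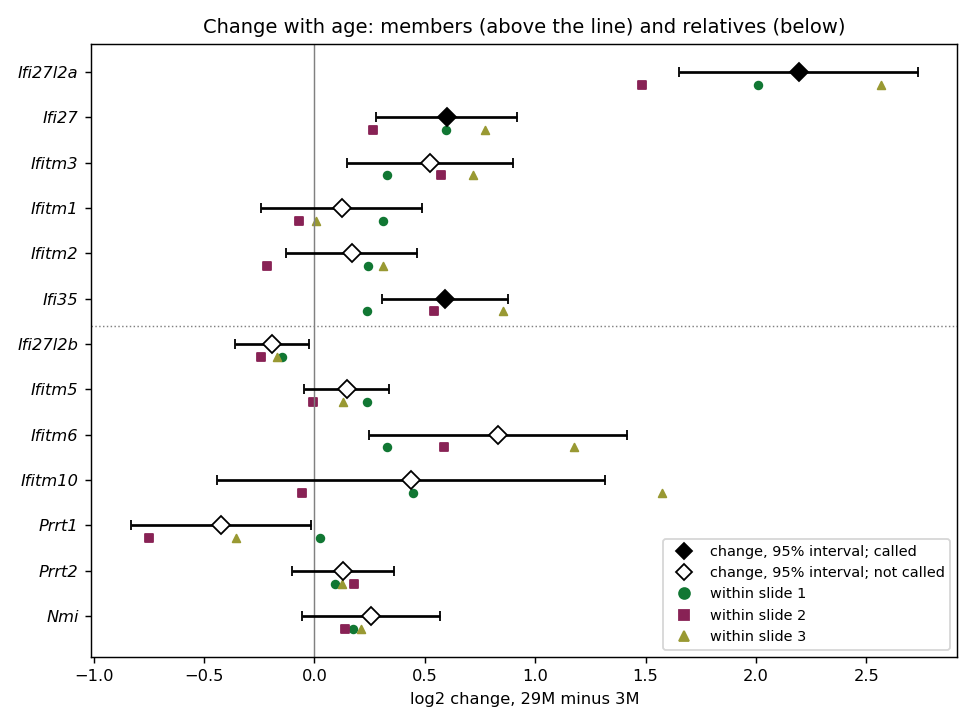
Log2 change of each gene in 29M against 3M (x axis) with its 95% interval from limma (black bars) and the difference within each slide (coloured symbols), with filled diamonds for called genes, for the 6 genes above the dotted line and their relatives below it. Ifi27l2a stands at 2.19, Ifi27, Ifi35 and Ifitm3 between 0.52 and 0.60, and Ifitm1, Ifitm2 and all relatives but Ifitm6, Ifi27l2b and Prrt1 have intervals that hold 0.

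Promoters were read from RefSeq (GRCm38.p6) for the 4 members that the table matched, Ifitm1, Ifitm2, Ifitm3 and Ifi35, and Ifi27 and Ifi27l2a were not matched. Each window runs from 250 bases before to 50 bases after the annotated start, which is counted as position 1. Both strands were searched for the core of an interferon response element, which is GAAA followed after 2 unspecified bases by another GAAA, and for a gamma-activated site, TTCNNNGAA. These letters stand in 3.44% and 8.30% of all 32851 promoter windows. The windows of the Ifitm genes are shown side by side because the 3 genes are neighbours on chromosome 7 and Ifitm3 had the largest measured change, with matches to either motif in capitals. Ifitm3 lies at chr7:141010695-141010994 on the minus strand, Ifitm2 at chr7:140955912-140956211 on the minus strand and Ifitm1 at chr7:140967826-140968125 on the plus strand.
Ifitm3: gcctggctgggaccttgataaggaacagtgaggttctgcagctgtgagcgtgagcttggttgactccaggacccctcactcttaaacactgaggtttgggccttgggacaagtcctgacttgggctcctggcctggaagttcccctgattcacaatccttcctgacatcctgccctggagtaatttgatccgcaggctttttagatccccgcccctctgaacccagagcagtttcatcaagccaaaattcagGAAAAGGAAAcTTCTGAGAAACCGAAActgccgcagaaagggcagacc
Ifitm2: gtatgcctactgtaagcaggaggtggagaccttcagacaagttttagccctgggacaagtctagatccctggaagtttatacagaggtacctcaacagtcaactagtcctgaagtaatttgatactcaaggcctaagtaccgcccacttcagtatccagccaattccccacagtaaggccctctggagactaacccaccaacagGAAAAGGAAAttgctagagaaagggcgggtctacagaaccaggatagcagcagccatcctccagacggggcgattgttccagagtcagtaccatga
Ifitm1: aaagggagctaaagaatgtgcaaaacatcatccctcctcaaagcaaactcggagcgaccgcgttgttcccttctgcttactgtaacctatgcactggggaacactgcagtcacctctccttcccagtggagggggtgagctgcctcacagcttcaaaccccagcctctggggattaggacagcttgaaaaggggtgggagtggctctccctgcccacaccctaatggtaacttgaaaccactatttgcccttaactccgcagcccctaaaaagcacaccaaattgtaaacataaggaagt

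The Ifitm3 window holds the response element core at positions 3 to 12 and 20 to 29, with a gamma-activated site at positions 14 to 22 that overlaps the later core by 3 bases, all just after the annotated start. Ifitm2 holds 1 core at positions -46 to -37, and Ifitm1 holds neither set of letters in this window. All core matches were on the strand of the gene. Such a match is a run of letters, and binding was not measured in these samples.

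Ifi35, a cytoplasmic interferon-induced protein, was called. Its level was 9.25, 9.03, 8.70 and 8.84 in 3M replicates 1 to 4 and 9.62, 9.57, 9.62 and 9.36 in 29M replicates 1 to 4. The groups lay apart by 0.11 log2 units, with 3M replicate 1 and 29M replicate 4 nearest to each other. The means were 8.95 ± 0.24 and 9.54 ± 0.12 (SD, n = 4 each), a log2 change of 0.59 (SE 0.13, 95% interval 0.31 to 0.88) or 1.51-fold. The limma adjusted p was 0.0579, and the exact permutation p was again the smallest possible, 0.0286. Within slides 1, 2 and 3 the difference was 0.24, 0.54 and 0.86. The call ended without 3M replicate 2, 3 or 4 (limma adjusted p 0.143, 0.119 and 0.123) and without 29M replicate 1, 2 or 3 (0.165, 0.148 and 0.108). It also ended with slide as a fixed block (0.127), with replicate number as a block (0.122) and with the processed signal scaled to the 75th percentile (0.118). Nmi, the protein that Ifi35 pairs with, changed by 0.25 log2 units (SE 0.14, limma adjusted p 0.394), short of a call.

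The promoter of Ifi35 (GRCm38.p6, chr11:101448162-101448461, plus strand) is shown as that of the only called member with a matched window. It holds a gamma-activated site, in capitals, at positions 8 to 16 and no response element core.
Ifi35: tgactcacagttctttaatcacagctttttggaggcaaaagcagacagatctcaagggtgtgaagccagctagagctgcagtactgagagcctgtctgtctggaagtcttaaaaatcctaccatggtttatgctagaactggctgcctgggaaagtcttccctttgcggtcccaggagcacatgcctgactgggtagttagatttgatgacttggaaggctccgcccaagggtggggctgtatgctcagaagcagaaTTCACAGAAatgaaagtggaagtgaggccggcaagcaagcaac

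The order of the arrays was alike in several members. Among the 8 arrays, 29M replicate 3 was the highest for Ifi27, Ifi27l2a, Ifitm1, Ifitm2 and Ifitm3, and 29M replicate 1 for Ifi35. 3M replicate 3 was the lowest for every member except Ifitm1. Within 29M, replicate 4 was the lowest for Ifi27l2a, Ifitm1, Ifitm3 and Ifi35. Members share the same 8 RNA samples, so these orders are not independent of each other.

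**Figure D3:**
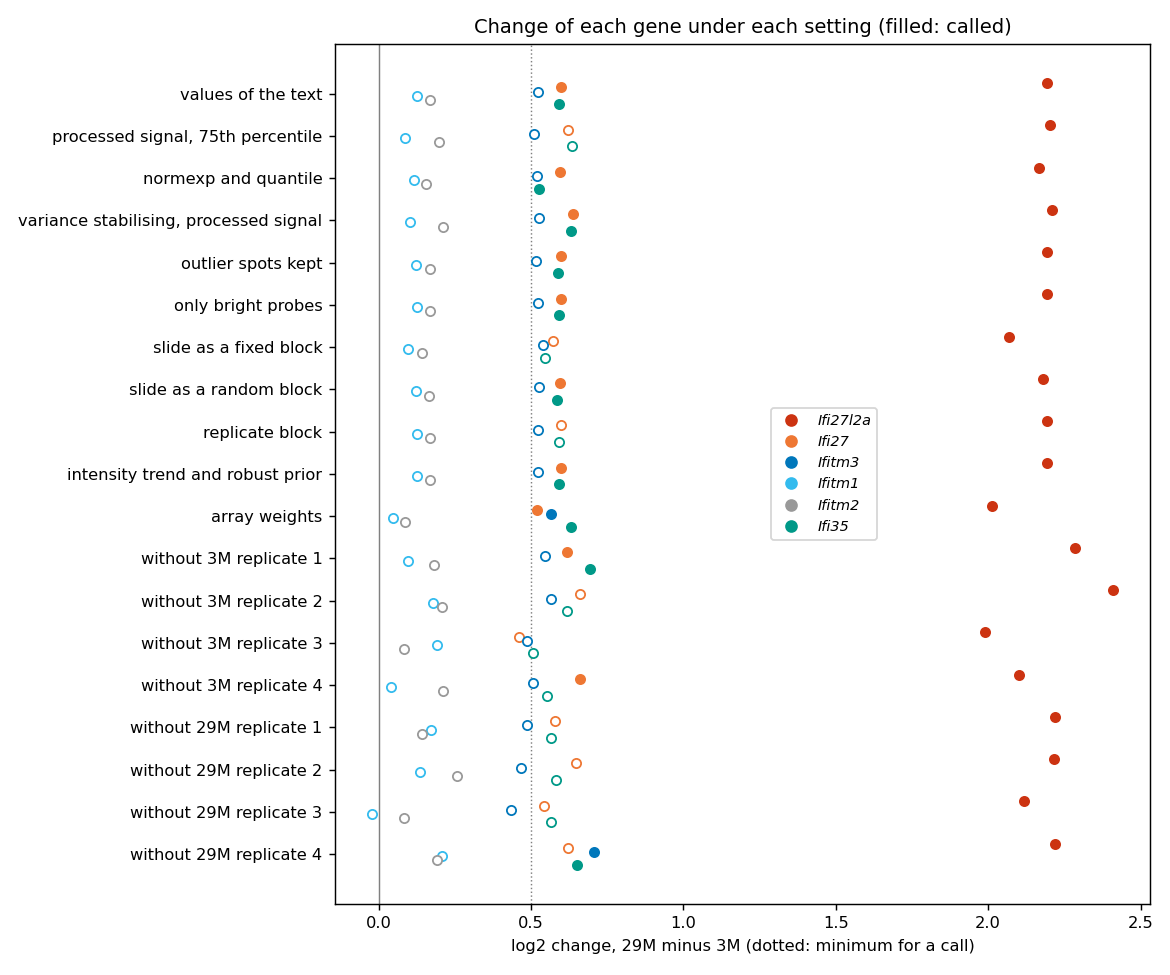
Log2 change of the 6 genes (x axis, coloured by gene and set slightly apart in height) under the settings used in the text and 18 others (rows), filled where the gene was called and with the minimum change for a call dotted. Ifi27l2a is called in all rows at 1.99 to 2.41, Ifi27 and Ifi35 in 9 of the 18 others each, Ifitm3 in 2, and Ifitm1 and Ifitm2 in none.

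Relatives of the members were fixed as a list, of which 7 genes had a probe and 0 were called by limma (3 had an unadjusted p under 0.05). Ifitm6, an Ifitm gene of the same cluster, read 7.59, 7.35, 7.22 and 6.17 in 3M and 7.87, 7.94, 7.92 and 7.93 in 29M. Every 29M array lay above every 3M array, as for 5.52% of all probes, and 3M replicate 4 was far below the others. The change was 0.83 log2 units (SE 0.26, limma adjusted p 0.157). Ifitm5, known from bone, had a change of 0.15 (limma adjusted p 0.428). Ifitm10 was well above background on 1 of the 3M arrays and 2 of the 29M arrays, and its change of 0.44 (SE 0.39, limma adjusted p 0.616) came with a wide spread. Prrt1 and Prrt2, synaptic proteins that share the membrane fold of the Ifitm family, had changes of -0.42 (limma adjusted p 0.277) and 0.13 (0.568), and another Prrt2 probe gave -0.03. Ifitm7 had no named probe.

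The wider interferon pathway was described by lists ordered by role, without the 6 genes and their relatives. Of 83 listed genes 80 had a probe, and 18 of them (22.5%) were called higher and 0 lower, beside the 1.58% and 0.689% of all genes given above. The median log2 change over the 80 was 0.30, with 65 higher and 33 at an unadjusted p under 0.05. The medians within slides 1, 2 and 3 were 0.06, 0.23 and 0.48. Without 29M replicate 2 the count called was 9, and without 3M replicate 1 it was 36.

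Of the interferons themselves 8 had a probe, 0 were called by limma, 1 had an unadjusted p under 0.05 and 4 were not well above background on all arrays of either group. The median log2 change was 0.01. Interferon gamma, Ifng, had the lowest p, with a change of -0.49 (SE 0.19, limma adjusted p 0.237). Of the 6 receptor chains 0 were called and 0 had an unadjusted p under 0.05 in limma. The interferon gamma receptor chain Ifngr1 had the lowest p, with a change of 0.30 (SE 0.14, limma adjusted p 0.318).

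Of the 11 signal transducers 2 were called higher, the transcription factors Irf7 and Irf8. Irf7, which drives the amplification of type I interferon, rose by 0.66 (SE 0.14, 1.58-fold, limma adjusted p 0.0575), and Irf8, a factor of microglia and other myeloid cells, by 0.60 (SE 0.13, 1.51-fold, 0.0637). All 10 nucleic acid sensors had a higher mean in 29M and 2 were called. These were the RNA sensors Ifih1 at 0.75 (SE 0.17, limma adjusted p 0.0666) and Ddx58 at 0.67 (SE 0.13, 0.0411).

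The other interferon-induced genes were those most like the members, with 12 of 38 called higher and 35 of 38 with a higher mean in 29M. Their median log2 change was 0.54, and 0.06, 0.75 and 0.87 within slides 1, 2 and 3. The only 3M array of slide 1, replicate 1, had a mean log2 level of 10.80 over this list. The other 3M arrays had 9.94 to 10.18. In 29M the mean was 10.60 in replicate 4 and 10.89 to 11.00 in the others. Each of the 12 called genes was higher in 29M within slide 1, where other genes of the list were lower. The arrays of slide 1 were part of the fit that made the calls, so this is no separate support for them. Ifit1, which binds foreign RNA, had the largest rise of this list at 1.42 (SE 0.17, 2.67-fold, limma adjusted p 0.00557). Rtp4 rose by 1.34 (SE 0.19, 0.0142), Oas1a, which makes the messenger that activates RNase L, by 1.31 (SE 0.28, 0.0551), and the secreted Lgals3bp by 1.30 (SE 0.21, 0.0219). Ifi27l2a, at 2.19, lay above each of these in log2 change, while Ifi27 and Ifi35 lay near the median of the list. The response element core stands in the promoter windows of 15 of the 30 genes of this list that had one, and the gamma-activated site in 7 of 30. Over all 27025 genes with a window these shares were 3.99% and 9.55%.

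Of the 7 negative regulators 2 were called higher. Usp18, which removes the ubiquitin-like protein Isg15 and dampens type I receptor signalling, rose by 1.31 (SE 0.21, 2.48-fold, limma adjusted p 0.0198). Socs3, an inhibitor of cytokine receptor signalling, rose by 1.17 (SE 0.17, 2.25-fold, 0.0151).

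**Figure D4:**
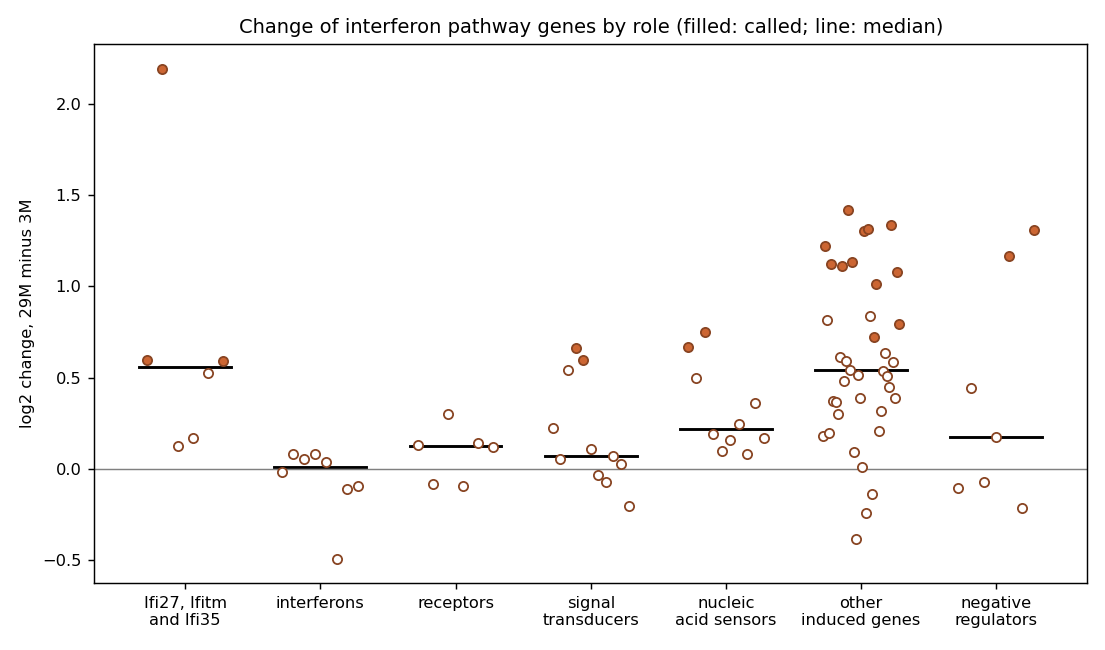
Log2 change in 29M against 3M (y axis) of each gene with a probe, by role in the interferon pathway (x axis, points spread sideways for display only), with called genes filled and the median of each list as a line. Of the other induced genes 12 are called and their median is 0.54, while no interferon or receptor is called and their medians are 0.01 and 0.13.

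For each called member the 3 genes with the most similar course over the 8 arrays were found among 16440 bright genes, by the root mean square (RMS) difference between log2 profiles centred on their own means. Around Ifi27l2a these were the chemokine Cxcl13 (RMS difference 0.303), the complement gene C4b (0.321) and the chemokine Ccl2 (0.331). Around Ifi27 they were Osgin1 (0.0504), the mitochondrial membrane protein Tspo (0.0583) and Zfp185 (0.0840), and around Ifi35 the complement protease C1s1 (0.0634), Tmc6 (0.0783) and Rnase6 (0.0827). The measure rests on both the size and the course of a change, and 8 arrays of 2 groups were compared.

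Cell type markers were set beside these results. Of 10 microglia markers, all well above background, 8 had a higher mean in 29M and 2 were called higher, Trem2 at 0.65 and C1qa at 0.86. Their median log2 change was 0.35, and their summed normalized intensity was 228014 to 250287 in 3M and 250172 to 278982 in 29M. Of 10 endothelial markers 8 had a higher mean and 0 were called (2 with an unadjusted p under 0.05 in limma), with a median of 0.11 and sums of 92202 to 119170 in 3M and 102824 to 116274 in 29M. The 8 choroid plexus markers had a median of 0.19 with 0 called and 0 at an unadjusted p under 0.05 in limma, and their sums were 343707 to 486237 and 380785 to 472673. Of the T and B cell markers 9 had a probe and 2 were called, Cd8a at 0.71 and Cd2 at 0.65, with sums of 25471 to 28246 in 3M and 24448 to 30777 in 29M. Of the 10 astrocyte markers 6 had a higher mean and 1 was called, Gfap at 0.71 (SE 0.12, limma adjusted p 0.0235; 0.45, 0.72 and 0.87 within slides 1, 2 and 3), with a median of 0.16 over the list (0.071 with the processed signal scaled to the 75th percentile) and sums of 399605 to 495679 in 3M and 439662 to 491293 in 29M. The 6 granulocyte markers had a median of 0.42 (0.55 with the processed signal scaled to the 75th percentile). Of these 0 were called and 2 had an unadjusted p under 0.05 in limma. The 10 neuron markers had a median of 0.01. Medians were 0.26 for meninges, 0.18 for oligodendrocytes, -0.01 for mural cells and -0.30 for red blood cells, with 0 called in each. The part of microglia or any other cell type in the rise of Ifi27l2a, Ifi27 and Ifi35 was not tested.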

How the data were processed

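Hippocampal RNA was measured on 8 arrays, 4 of 3M and 4 of 29M. For each array the authors deposited linear spot intensities without normalization between arrays, which per the file headers came from Agilent Feature Extraction 10.7.3.1. The study's methods name another software version and array design, and the headers were followed. A table of the whole series holds intensities too, but each of its 8 columns matched an array's averaged local background (tolerance 0.001), for 7 columns that of a sample other than the one named, and it was left out. Arrays were assigned to samples by their own deposited files. Which assignment is right was not resolved, and all comparisons here rest on that of the array files.

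Variance stabilising normalization (1 offset and 1 scale per array, least trimmed squares with quantile 0.9 and 7 iterations, written for this purpose in R 4.3.3) was applied to median spot intensities without control spots and outlier spots (127 to 190 per array). Spots of a probe were averaged. Probes with at least 3 usable arrays per group were fitted in limma 3.58.1 with eBayes, and p-values were adjusted by Benjamini-Hochberg over all probes. Thresholds followed the study's methods, and no filter on dim probes was applied. This scale understates changes of dim probes. The number of arrays limits the precision. The steps were run on simulated data whose changes were larger than those of Ifi27, Ifi35 and the Ifitm genes. Recovery of changes as small as theirs was not tested.

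Accessions were matched to RefSeq genes, which named 26055 of 39429 probes (66.1%, 19751 genes) and left 13374 without a symbol. Where a gene had several probes, the one with the highest mean stands for it. Because the arrays were designed on another build, no probe positions are given. The members and all lists were chosen with earlier results of these data known. Named genes are the members, their relatives, up to 4 called genes per role list with the largest change or else the gene with the lowest p, and the 3 genes most similar to each called member, and the called markers were named after their values were seen. Groups came from the sample titles and ages in the labels. Alternatives are given in the closing section.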

Additional observations from a re-analysis of the deposited data

Results flagged for a closer look

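In groups of 4 arrays, a value was marked when the distance to the nearest of the other arrays, as a share of the group's range, passed Dixon's critical value at 95%. Of 46 groups of values examined 3 were marked, and chance marks about 1 in 20. Ifi27l2a in 29M replicate 3 stood at 13.85 beside 13.54 to 13.55 on the other 29M arrays (a share of 0.971). The mean log2 level of the mural cell markers in 3M replicate 1 was 11.34, beside 11.53 to 11.55 in the other 3M arrays (0.881). The mean of the T and B cell markers in 29M replicate 4 was 8.47, beside 8.56 on each of the other 29M arrays (0.935).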

How the results depend on the processing

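Ifi27l2a was called under all 18 alternatives, with a log2 change of 1.99 to 2.41 and limma adjusted p of 0.00270 to 0.0372. Ifi27 (0.46 to 0.66, adjusted p 0.0491 to 0.203) and Ifi35 (0.51 to 0.69, adjusted p 0.00946 to 0.165) were called in 9 of 18 each, Ifitm3 (0.43 to 0.70, adjusted p 0.0170 to 0.332) in 2, and Ifitm1 and Ifitm2 in none. The count of called members fell from 3 to 1, Ifi27l2a, with the processed signal scaled to the 75th percentile, with slide as a fixed block and at an adjusted p under 0.05, and leaving out 1 array gave 1 to 3. The pathway count of 18 became 11 with slide as a fixed block and 31 with array weights, and was 9 to 36 with 1 array left out. Of all probes 810 were called, 1504 with array weights, 487 at an adjusted p under 0.05, 1391 with no minimum change and 399 (without 3M replicate 2) to 1465 (without 3M replicate 1) with 1 array left out. The sign turned for Ifitm1 without 29M replicate 3 (-0.022) and within slide 2 (-0.071), and for Ifitm2 within slide 2 (-0.21). Slide 2 held 1 array of each group. The cause of these shifts was not tested. The median change of all genes stayed between -0.01 and 0.02.

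With a replicate block 1 member, 11 pathway genes and 411 probes were called. The correlations of same-numbered samples around their group means were -0.24, 0.21, -0.23 and 0.07, so the numbers were not taken to pair samples. No member had another probe, so that alternative was not run.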
